A study of Rattus norvegicus with 15 samples.

Results

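The collagens are a family of secreted extracellular matrix proteins, here taken as every gene of the liver expression table whose symbol is Col, a number, the letter a and a second number. The pattern matched 43 of the table's 21576 genes. Of these, 42 were collagen genes, and the other, Col4a3bp, encodes the ceramide carrier CERT and is described apart. The collagens comprised 10 fibrillar, 6 basement membrane, 6 beaded filament, 9 fibril-associated (FACIT), 2 multiplexin, 3 network-forming short chain, 3 transmembrane and 3 other collagens. Col1a2, Col21a1 and Col23a1 were not analysed here.

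A collagen molecule is built from alpha chains that wind around each other into a rod-like helix. Fibrillar collagens form the tensile fibres of connective tissue, type IV chains form the sheet-like mesh of basement membranes, and FACIT collagens sit on the surface of fibrils. In liver, stellate cells and portal fibroblasts are the known sources of fibrillar collagen in scarring, sinusoidal endothelial cells contribute type IV chains, and hepatocytes are known to express Col18a1, the precursor of endostatin.

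Bulk RNA sequencing was done on livers of male Sprague-Dawley rats, with 5 libraries in each of 3 groups named ZXD, HFD and CON. ZXD and HFD rats shared a feed of base forage (66%) enriched with sucrose (16.7%), yolk (8.3%), lard (7%) and cholesterol (2%). It also contained sodium cholate (0.3%), a bile salt, and propylthiouracil (0.2%), an antithyroid drug. After 4 weeks of it, ZXD rats received ZXD by mouth at 2.2 g/kg per day and HFD rats received saline, for 4 weeks more. CON rats ate normal chow, so that the CON group received neither the feed nor its propylthiouracil. The labels give 10 rats per group and a hyperlipidemia setting. They state neither the ages, nor which rats were sequenced, nor whether a library is 1 rat, nor what ZXD contains. A simvastatin group was not analysed here.

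Libraries held 12552449 to 14228052 counts. Levels are CPM values, read counts brought to a common library size, with sizes scaled by TMM, a method that centres most genes between libraries. Its factors were 1.01 to 1.28 in ZXD and HFD and 0.793 to 0.867 in CON. A count of 3 corresponds to 0.183 to 0.285 CPM. Hepatocyte markers were present at high levels in every library, with summed levels over 6 genes of 24921.6 to 72078.5 CPM in ZXD, 41703.9 to 63861.5 CPM in HFD and 116084.4 to 145665.0 CPM in CON. Most of that sum was Alb, which averaged 33771.3 CPM in ZXD, 39380.2 CPM in HFD and 104282.3 CPM in CON. In bulk tissue, fewer cells of a type and less RNA per cell cannot be told apart.

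Levels of the collagens relative to each other were compared per kilobase of gene length. Col18a1 was the highest in every group, at 154 ± 19.9 CPM per kb in ZXD, 188 ± 19.7 in HFD and 191.5 ± 16.4 in CON (SD, n = 5 each). Col3a1, a fibrillar chain of soft connective tissue, came second with means of 45.2, 44.3 and 41.1 CPM per kb in ZXD, HFD and CON. Col6a1, a chain of the beaded filaments around cells, came next at 20.7, 21.4 and 20.6 CPM per kb. Over all 42 collagens, the summed level was 293.6 ± 42.4 CPM per kb in ZXD, 311.0 ± 82.0 in HFD and 308.9 ± 36.2 in CON. The groups' sums overlapped, with ranges of 240.9 to 352.4, 234.6 to 417.1 and 275.1 to 363.6 CPM per kb.

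The make-up of that sum was also described per kb. Col18a1 held 53.6 ± 11.3% of the collagen sum in ZXD, 62.6 ± 9.88% in HFD and 62.2 ± 3.42% in CON. Basement membrane chains held 7.77 ± 3.91% in ZXD, 4.78 ± 1.05% in HFD and 3.65 ± 1.09% in CON, and fibrillar chains held 20.3 ± 6.39%, 17.3 ± 6.75% and 19.2 ± 2.98%. ZXD library 4 stood apart within its group, with Col18a1 at 34.9% of the sum, fibrillar chains at 30.7% and basement membrane chains at 14.5%. Shares of a sum are tied to each other, so a lower Col18a1 raises the shares of the rest.

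**Figure D1:**
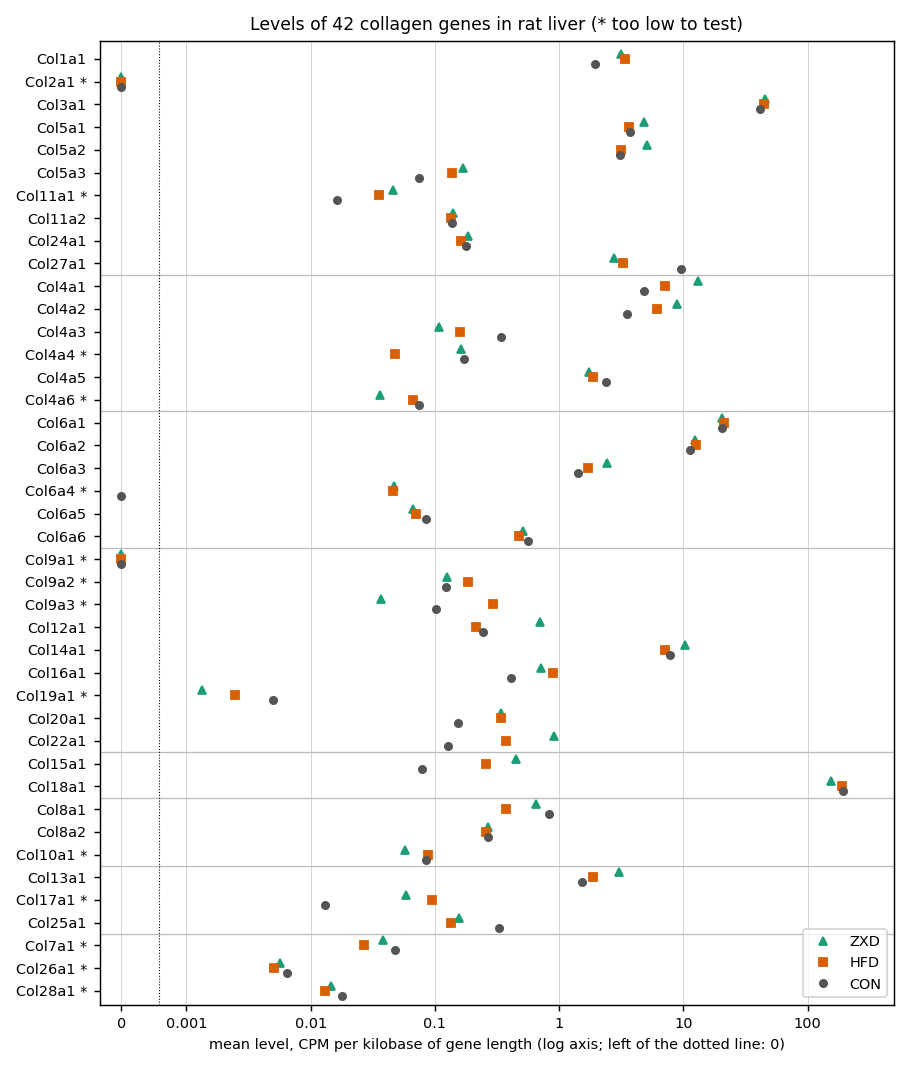
Mean level of each of the 42 collagens in ZXD, HFD and CON (5 libraries each), in CPM per kilobase of gene length on a log axis; genes run down the page by class, separated by lines, and a star marks genes too low to test. Col18a1 lies near 154 to 191.5 CPM per kb, far to the right of the others, and Col2a1 and Col9a1 lie at 0 in every group.

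Of the 42 collagens, 28 passed a filter on low counts (about 10 counts in at least 5 libraries, 15 in all) and were tested, and 14 were too low to test. The lowest were Col2a1 and Col9a1, chains of cartilage collagens, which had no count in any of the 15 libraries. Col19a1, Col26a1, Col28a1 and Col4a4 also had mean counts under 3 in each group, with highest counts of 2, 1, 4 and 9 in a single library. Counts of 0 or near 0 show that these genes were at or near the limit of detection at this depth, not that they are silent. Col4a4 had 1 to 5 counts in every ZXD library, on a listed length of 1152 bases.

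The other 8 untested collagens had a few counts each. The highest counts were 16 for Col10a1 and for Col11a1, 12 for Col17a1, 23 for Col4a6, 10 for Col6a4, 13 for Col7a1, 11 for Col9a2 and 25 for Col9a3. Col6a4 had 2, 3, 6, 9 and 2 counts in ZXD libraries 1 to 5, 0, 5, 4, 2 and 10 counts in HFD libraries 1 to 5, and 0 counts in every CON library. With the low-count filter removed, edgeR called Col6a4 higher both in ZXD and in HFD than in CON, on these few counts. Col10a1 shares 10365 bases of its span with Nt5dc1 on the opposite strand, more than its listed length of 6543 bases. Overlap of exons was not checked, and strand use is not given in the sources used here. Whether any of the Col10a1 counts came from Nt5dc1 was not tested. Among the tested collagens, Col11a2 and Col6a5 were under 1 CPM on average in each group.

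Tests used edgeR's quasi-likelihood fit over all 13163 testable genes, with a gene called at a Benjamini-Hochberg adjusted p under 0.05. ZXD and HFD were each set against the same CON libraries, so these comparisons are not independent. In ZXD versus CON, 6 collagens rose (Col4a1, Col4a2, Col12a1, Col13a1, Col20a1, Col22a1) and 2 fell (Col27a1, Col4a3), which is 28.6% of the 28 tested, against 32.7% called over all genes. Over all genes 17.9% rose and 14.8% fell. Tested collagens had a median log2 fold change of 0.25, and all genes one of 0.03. An unadjusted p under 0.05 was found for 12 collagens, against 43.7% of all genes. Col13a1 and Col20a1 had groups that did not overlap, 2 of 28 collagens, against 18.0% of all genes.

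In HFD versus CON, Col16a1 rose and Col27a1 fell, 7.14% of the tested collagens, against 21.0% called over all genes (10.0% higher and 10.9% lower). The log2 fold change was positive for 14 collagens and negative for 14. Of the collagens 6 had an unadjusted p under 0.05, against 37.0% of all genes. In ZXD versus HFD edgeR called 0 collagens, against 0.0% called over all genes. There 4 collagens (Col12a1, Col13a1, Col18a1, Col5a2) had an unadjusted p under 0.05, against 16.5% of all genes, and DESeq2 called 1, Col12a1.

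Directions against CON depend on the scaling. With library totals in place of TMM, all genes together shifted to a median of 0.46 (log2) in ZXD versus CON and 0.44 in HFD versus CON. The collagens' medians then became 0.72 and 0.43. On that scaling 10 collagens were called higher and 2 lower in ZXD than in CON, against 45.9% and 4.77% of all genes. HFD gave 6 higher and 0 lower than CON, against 40.9% and 3.84% of all genes.

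**Figure D2:**
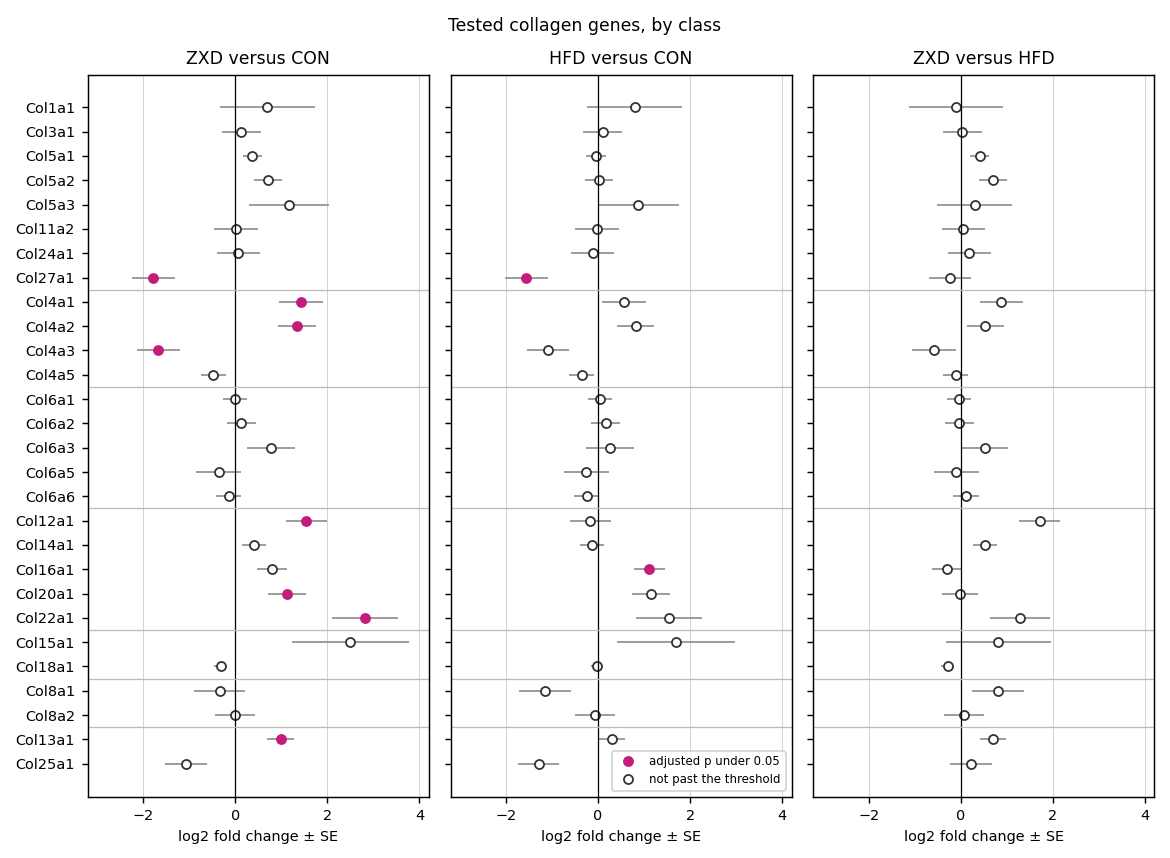
Log2 fold change with its standard error for the 28 tested collagens by class, in ZXD versus CON, HFD versus CON and ZXD versus HFD; filled points have an edgeR adjusted p under 0.05. The filled points are 8 in ZXD versus CON, 2 in HFD versus CON and 0 in ZXD versus HFD.

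Of the 8 tested fibrillar collagens, 0 rose and 1 fell in each comparison with CON. That is 12.5%, against 32.7% of all genes called in ZXD versus CON and 21.0% in HFD versus CON. The gene that fell was Col27a1, a fibrillar collagen best known from cartilage. It had 9.08, 8.50, 17.5, 23.4 and 18.9 CPM in ZXD libraries 1 to 5, 12.8, 16.2, 9.60, 17.7 and 34.4 CPM in HFD libraries 1 to 5, and 21.4, 55.0, 120.9, 31.1 and 37.7 CPM in CON libraries 1 to 5. CON library 3 was the highest of all, and both other groups overlapped CON at their upper end. Col27a1 was lower in ZXD than in CON (log2 fold change -1.78, SE 0.47; edgeR adjusted p = 0.011), and the call held without any single library. Between HFD and CON it was -1.55 (SE 0.46, edgeR adjusted p = 0.0296); without CON library 3 it was -0.98 with an edgeR adjusted p of 0.103. That call was also lost without CON library 2 and without HFD libraries 1, 2 or 3, and with library totals (edgeR adjusted p = 0.0685).

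Col1a1, the main chain of the type I collagen of scar tissue, varied widely between the libraries of each group. It had 10.2, 1.715, 12.8, 56.7 and 10.15 CPM in ZXD libraries 1 to 5, 5.31, 42.4, 0.591, 6.61 and 44.1 CPM in HFD libraries 1 to 5, and 9.33, 37.0, 1.90, 5.05 and 3.41 CPM in CON libraries 1 to 5. Each group held at least 1 library at or above 37.0 CPM and 1 at or below 1.90 CPM, and the groups overlapped throughout. Its log2 fold change was 0.69 in ZXD versus CON (SE 1.03, edgeR adjusted p = 0.64), 0.80 in HFD versus CON (SE 1.03, edgeR adjusted p = 0.597) and -0.11 in ZXD versus HFD. A standard error of this size leaves the sign of the Col1a1 change unresolved.

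Col3a1, which forms mixed fibrils with type I collagen, had 197.0, 114.5, 174.2, 376.2 and 216.0 CPM in ZXD libraries 1 to 5, 124.3, 334.0, 98.0, 102.3 and 396.7 CPM in HFD libraries 1 to 5, and 238.5, 289.0, 125.8, 186.7 and 140.3 CPM in CON libraries 1 to 5. ZXD library 4 and HFD libraries 2 and 5 were again the highest, as for Col1a1. For Col3a1 the log2 fold change was 0.14 in ZXD versus CON (SE 0.42, edgeR adjusted p = 0.834) and 0.11 in HFD versus CON (SE 0.42, edgeR adjusted p = 0.875).

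The type V chains regulate the width of collagen fibrils. Col5a1 had 28, 14.7, 23.4, 38.3 and 29.9 CPM in ZXD libraries 1 to 5, 20.5, 22.6, 16.0, 17.1 and 24.8 CPM in HFD libraries 1 to 5, and 17.9, 24.35, 18.3, 24.65 and 18.65 CPM in CON libraries 1 to 5. Col5a2 had 27.8, 19.8, 32.4, 44.3 and 30.1 CPM in ZXD libraries 1 to 5, 14.2, 27.9, 11.7, 10.3 and 31.6 CPM in HFD libraries 1 to 5, and 20.7, 20.8, 13.9, 23.7 and 15.2 CPM in CON libraries 1 to 5. For Col5a2, 4 of 5 ZXD libraries lay above every CON library, while for Col5a1 it was 3 of 5. The log2 fold change in ZXD versus CON was 0.71 for Col5a2 (SE 0.31, edgeR adjusted p = 0.0866) and 0.37 for Col5a1 (SE 0.21, edgeR adjusted p = 0.19). Against HFD, ZXD gave 0.69 for Col5a2 (edgeR adjusted p = 0.279) and 0.41 for Col5a1 (edgeR adjusted p = 0.339). For HFD against CON the values were 0.02 and -0.04. The remaining fibrillar genes were low, with log2 fold changes in ZXD versus CON of 1.18 for Col5a3, 0.02 for Col11a2 and 0.07 for Col24a1, none called.

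Of the 4 tested basement membrane chains, Col4a1 and Col4a2 rose and Col4a3 fell in ZXD versus CON, Col4a5 was not called, and 0 were called in HFD versus CON. Over all genes 32.7% were called in ZXD versus CON and 21.0% in HFD versus CON. Col4a1 and Col4a2 assemble together into the basement membrane collagen found around most vessels. In RefSeq's annotation of the assembly GRCr8 their start sites lie 77 bases apart on opposite strands of chromosome 16, so that 176 bases of their promoter windows are the same. The Col4a1 window, chr16:84885347-84885646 on the plus strand (250 bases before to 50 after the gene's start), is shown because it holds the start of both genes that rose together. Capitals mark CCAAT boxes (CCAAT or its reverse complement) and GC boxes (GGGCGG or its reverse complement), searched on both strands.
Col4a1: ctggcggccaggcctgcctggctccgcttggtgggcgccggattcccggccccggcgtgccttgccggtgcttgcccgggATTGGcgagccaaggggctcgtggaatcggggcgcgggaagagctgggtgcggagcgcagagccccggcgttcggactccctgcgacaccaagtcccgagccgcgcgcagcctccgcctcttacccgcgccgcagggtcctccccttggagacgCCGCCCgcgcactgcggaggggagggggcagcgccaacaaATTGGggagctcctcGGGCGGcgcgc

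The window holds 2 CCAAT boxes and 2 GC boxes, and its GC content is 75.0%, against a median of 51.7% over 33469 RefSeq windows of the same length. Counted from the start of Col4a1, the CCAAT boxes begin at positions -170 and 25 and the GC boxes at -16 and 40. A CCAAT box was found in 37.5% of all windows, and a GC box in 33.1%. Among the 33 collagens with a window, 10 had a CCAAT box and 18 a GC box. A match only describes the letters of the window.

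Col4a1 had 46.2, 30.9, 78.1, 206.5 and 67.0 CPM in ZXD libraries 1 to 5, 34.6, 77.8, 23.9, 27.0 and 70.6 CPM in HFD libraries 1 to 5, and 46.8, 29.1, 21.2, 37.8 and 23.3 CPM in CON libraries 1 to 5. Col4a2 had 42.2, 23.5, 51.5, 119.7 and 50.7 CPM in ZXD libraries 1 to 5, 33.9, 61.1, 23.9, 23.4 and 57.8 CPM in HFD libraries 1 to 5, and 31.4, 22.8, 13.4, 30.6 and 15.5 CPM in CON libraries 1 to 5. For both genes ZXD libraries 3, 4 and 5 and HFD libraries 2 and 5 lay above every CON library, and the remaining libraries overlapped CON, except that for Col4a2 ZXD library 1 and HFD library 1 also lay above it. In ZXD versus CON the log2 fold change was 1.44 for Col4a1 (SE 0.48, edgeR adjusted p = 0.0323) and 1.34 for Col4a2 (SE 0.41, edgeR adjusted p = 0.0227). For HFD against CON it was 0.56 for Col4a1 (SE 0.47, edgeR adjusted p = 0.403) and 0.81 for Col4a2 (SE 0.41, edgeR adjusted p = 0.159).

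ZXD library 4 carried much of this difference. Without it, the log2 fold change in ZXD versus CON was 0.81 for Col4a1 (edgeR adjusted p = 0.137) and 0.88 for Col4a2 (edgeR adjusted p = 0.0835). The Col4a1 call was also lost without CON libraries 2, 3 or 5 or ZXD library 3, and the Col4a2 call without CON libraries 3 or 5. ZXD library 4 also had the highest summed level of 11 macrophage markers, 3131.7 CPM, and the lowest summed level of 6 hepatocyte markers, 24921.6 CPM; their part in the result was not tested.

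Col4a3, a chain known from the basement membranes of kidney and lung, had 0.206, 0.702, 1.05, 0.366 and 0.362 CPM in ZXD libraries 1 to 5, 0.906, 0.977, 0.517, 0.886 and 0.746 CPM in HFD libraries 1 to 5, and 1.97, 2.32, 0.950, 2.66 and 0.681 CPM in CON libraries 1 to 5. These are 3 to 15 counts per ZXD library, 7 to 14 per HFD library and 8 to 30 per CON library. CON libraries 1, 2 and 4 lay above all others, and CON libraries 3 and 5 lay within the range of the other groups. Col4a3 was lower in ZXD than in CON (log2 fold change -1.67, SE 0.47, edgeR adjusted p = 0.0156), and the call held without any single library. Against CON, HFD gave -1.08 (log2, SE 0.46; edgeR adjusted p = 0.10). Col4a5 averaged 11.4 ± 3.74 CPM in ZXD, 12.3 ± 3.68 CPM in HFD and 15.8 ± 4.39 CPM in CON, with log2 fold changes of -0.47 in ZXD versus CON and -0.36 in HFD versus CON that were not called. Col4a3 and Col4a4, and Col4a5 and Col4a6, are also head-to-head pairs in RefSeq, with 413 and 1415 bases between their starts, and the second gene of each pair was too low to test.

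**Figure D3:**
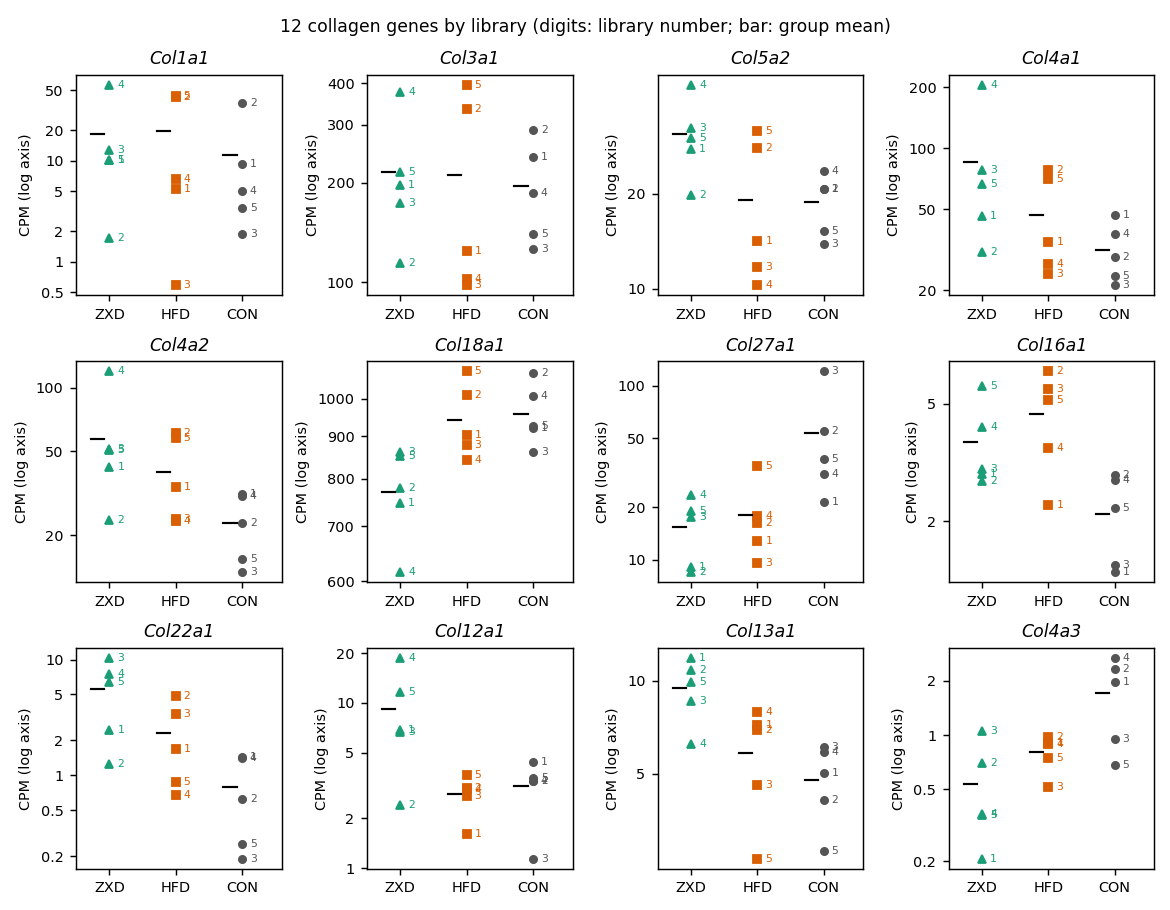
CPM per library on log axes for 12 collagens, with ZXD, HFD and CON side by side (5 libraries each), digits giving the library number and bars the group mean. ZXD library 4 and HFD libraries 2 and 5 are the highest of their groups for Col1a1, Col3a1, Col5a2, Col4a1 and Col4a2, while for Col18a1 ZXD library 4 is the lowest of all at 616.0 CPM.

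Of the 5 tested beaded filament chains (type VI collagen, a pericellular microfibril) none was called in any comparison. Over all genes 32.7% were called in ZXD versus CON, 21.0% in HFD versus CON and 0.0% in ZXD versus HFD. Col6a1 had 74.8, 63.4, 67.6, 110.6 and 100.9 CPM in ZXD libraries 1 to 5, 71.1, 115.8, 38.9, 74.0 and 131.9 CPM in HFD libraries 1 to 5, and 72.05, 99.7, 80.0, 85.4 and 79.4 CPM in CON libraries 1 to 5. Its groups overlapped, with CON the narrowest, and its log2 fold change was 0.00 in ZXD versus CON (SE 0.26) and 0.05 in HFD versus CON (SE 0.26). Col6a2, which joins the same heterotrimer, had 38.4, 34.15, 34.9, 68.5 and 47.5 CPM in ZXD libraries 1 to 5, 34.6, 62.1, 16.25, 43.35 and 72.8 CPM in HFD libraries 1 to 5, and 41.0, 54.8, 39.8, 35.1 and 33.6 CPM in CON libraries 1 to 5. Its groups overlapped as well, with log2 fold changes of 0.13 in ZXD versus CON and 0.17 in HFD versus CON. Col6a3, the longest of these chains, had 16.2, 12.6, 19.8, 61.4 and 24.1 CPM in ZXD libraries 1 to 5, 12.3, 28.4, 3.77, 10.8 and 38.6 CPM in HFD libraries 1 to 5, and 21.4, 15.3, 14.5, 15.1 and 11.8 CPM in CON libraries 1 to 5. ZXD library 4 lay above every other library for Col6a3, and HFD library 3 below every other. Its log2 fold change was 0.78 in ZXD versus CON (SE 0.52, edgeR adjusted p = 0.266) and 0.27 in HFD versus CON (SE 0.52, edgeR adjusted p = 0.737). Col6a5 and Col6a6 gave -0.35 and -0.14 in ZXD versus CON, and -0.26 and -0.25 in HFD versus CON.

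The FACIT collagens held 3 of the 6 genes that rose in ZXD versus CON: of 5 tested, Col12a1, Col20a1 and Col22a1 rose and 0 fell. Over all genes 17.9% rose and 14.8% fell. The median log2 fold change was 1.13 in the FACIT collagens and 0.03 in all genes. Of the 3 genes that rose, limma voom called only Col22a1. With library totals all 5 tested were called higher, against 45.9% of all genes. In HFD versus CON, Col16a1 rose and 0 fell, against 10.0% and 10.9% of all genes. Col22a1, known from tissue junctions of muscle and tendon, had 2.48, 1.25, 10.3, 7.57 and 6.38 CPM in ZXD libraries 1 to 5, 1.68, 4.89, 3.397, 0.682 and 0.881 CPM in HFD libraries 1 to 5, and 1.44, 0.624, 0.190, 1.42 and 0.256 CPM in CON libraries 1 to 5. These are 16 to 147 counts per ZXD library, 10 to 70 per HFD library and 2 to 16 per CON library. CON libraries 3 and 5 held 2 and 3 counts, so the fold changes against CON are measured from a low base. Of the ZXD libraries, 4 of 5 lay above every CON library. Col22a1 was higher in ZXD than in CON (log2 fold change 2.82, SE 0.72; edgeR adjusted p = 0.00941), by more than any other tested collagen, and the call held without any single library. Against CON, HFD gave 1.54 (SE 0.71, edgeR adjusted p = 0.129).

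Col12a1, which bridges fibrils in dense connective tissue, had 6.81, 2.42, 6.64, 18.6 and 11.6 CPM in ZXD libraries 1 to 5, 1.62, 3.07, 2.73, 2.999 and 3.66 CPM in HFD libraries 1 to 5, and 4.40, 3.39, 1.14, 3.37 and 3.49 CPM in CON libraries 1 to 5. All ZXD libraries but library 2 lay above every HFD and CON library. Col12a1 was higher in ZXD than in CON (log2 fold change 1.54, SE 0.45, edgeR adjusted p = 0.0176); without ZXD library 4 it was 1.12 with an edgeR adjusted p of 0.0628. In ZXD versus HFD it was 1.71 (SE 0.45), with an edgeR adjusted p of 0.155 and a DESeq2 adjusted p of 0.0181. Against CON, HFD gave -0.17 (SE 0.45, edgeR adjusted p = 0.812).

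Col20a1, a less studied FACIT collagen, had 2.75, 2.65, 3.56, 4.58 and 2.10 CPM in ZXD libraries 1 to 5, 5.76, 0.907, 2.44, 4.635 and 2.10 CPM in HFD libraries 1 to 5, and 1.88, 1.25, 1.14, 1.60 and 1.28 CPM in CON libraries 1 to 5. Every ZXD library lay above every CON library, and in HFD 4 of 5 did. The log2 fold change was 1.13 in ZXD versus CON (SE 0.41, edgeR adjusted p = 0.0476) and 1.15 in HFD versus CON (SE 0.41, edgeR adjusted p = 0.0596), on either side of the threshold. The ZXD call was lost when any 1 of 9 libraries was left out: CON 2, 3, 4 or 5, HFD 3, or ZXD 1, 2, 3 or 4 (largest edgeR adjusted p = 0.121). Col14a1, known as undulin and found in fibrous tissue, had 79.1, 65.4, 49.3, 55.4 and 82.7 CPM in ZXD libraries 1 to 5, 41.4, 56.0, 24.8, 43.0 and 64.8 CPM in HFD libraries 1 to 5, and 76.0, 48.2, 39.9, 57.2 and 29.8 CPM in CON libraries 1 to 5. Its groups overlapped, and it was not called in any comparison (log2 fold change 0.40 in ZXD versus CON, -0.13 in HFD versus CON and 0.53 in ZXD versus HFD).

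Col16a1, which links fibrils to cells and other matrix, had 2.89, 2.73, 3.005, 4.15 and 5.73 CPM in ZXD libraries 1 to 5, 2.27, 6.42, 5.61, 3.545 and 5.15 CPM in HFD libraries 1 to 5, and 1.35, 2.85, 1.425, 2.75 and 2.21 CPM in CON libraries 1 to 5. HFD libraries 2 to 5 lay above every CON library, and HFD library 1 among them. Col16a1 was higher in HFD than in CON (log2 fold change 1.11, SE 0.33, edgeR adjusted p = 0.0293). In ZXD versus CON it was 0.80 (SE 0.33, edgeR adjusted p = 0.0756), and in ZXD versus HFD it was -0.31 (SE 0.32). The HFD call was lost without CON libraries 1, 3 or 5 or HFD libraries 2, 3 or 5, with a largest edgeR adjusted p of 0.0793. The promoters of Col16a1 and Col27a1, the genes called in opposite directions in HFD versus CON, are shown as RefSeq windows of GRCr8 at chr5:147672846-147673145 and chr5:81662658-81662957, both on the plus strand, with GC boxes in capitals.
Col16a1: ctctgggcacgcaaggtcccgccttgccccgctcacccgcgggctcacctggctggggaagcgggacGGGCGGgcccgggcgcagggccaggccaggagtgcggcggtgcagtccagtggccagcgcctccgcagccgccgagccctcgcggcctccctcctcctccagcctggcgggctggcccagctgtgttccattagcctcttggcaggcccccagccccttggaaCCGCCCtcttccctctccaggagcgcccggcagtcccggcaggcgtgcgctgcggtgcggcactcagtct
Col27a1: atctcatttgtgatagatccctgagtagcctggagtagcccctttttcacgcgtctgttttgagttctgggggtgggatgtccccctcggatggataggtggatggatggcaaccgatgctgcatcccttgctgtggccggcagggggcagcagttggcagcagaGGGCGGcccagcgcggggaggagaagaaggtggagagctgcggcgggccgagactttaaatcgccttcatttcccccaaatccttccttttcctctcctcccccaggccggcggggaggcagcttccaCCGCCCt

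Each of these windows holds 2 GC boxes, with a GC content of 75.0% for Col16a1 and 61.0% for Col27a1. Counted from the gene's start, they begin at positions -183 and -20 for Col16a1 and at -85 and 44 for Col27a1. Neither CCAAT nor TATAAA was found in either window on either strand. The same box therefore occurs in a gene that rose and in a gene that fell, and in 33.1% of all windows.

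Of the 2 multiplexins, edgeR with TMM called none, against 32.7% of all genes in ZXD versus CON and 21.0% in HFD versus CON. Col18a1, a basement membrane heparan sulphate proteoglycan made in liver, had 746.8, 778.5, 862.8, 616.0 and 852.2 CPM in ZXD libraries 1 to 5, 904.5, 1011.1, 877.5, 843.6 and 1079.7 CPM in HFD libraries 1 to 5, and 922.5, 1073.5, 862.7, 1006.9 and 927.5 CPM in CON libraries 1 to 5. The ZXD libraries sat below the others, with ZXD library 3 just above the lowest CON library and ZXD libraries 3 and 5 above the lowest HFD library. The log2 fold change of Col18a1 was -0.31 in ZXD versus CON (SE 0.13, edgeR adjusted p = 0.0858), -0.29 in ZXD versus HFD (SE 0.13, edgeR adjusted p = 0.297) and -0.02 in HFD versus CON (SE 0.13, edgeR adjusted p = 0.916). DESeq2 called the ZXD versus CON difference. That direction depends on the scaling: with library totals the ZXD versus CON value was 0.11 (edgeR adjusted p = 0.486). With library totals in place of TMM, Col18a1 was called higher in HFD than in CON, with a log2 fold change of 0.40 (edgeR adjusted p = 0.0186). Col15a1, the related precursor of restin, had 1.38, 0, 1.96, 8.18 and 0.217 CPM in ZXD libraries 1 to 5, 0.0647, 2.44, 0.0739, 0.818 and 3.32 CPM in HFD libraries 1 to 5, and 0.0897, 1.43, 0.190, 0 and 0.341 CPM in CON libraries 1 to 5. A few libraries held most of its counts, and its log2 fold change of 2.501 in ZXD versus CON (SE 1.27, edgeR adjusted p = 0.145) was not called.

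Among the transmembrane collagens, Col13a1 rose in ZXD versus CON and Col25a1 was not called. Col13a1, found at cell adhesion sites, had 11.8, 10.8, 8.60, 6.225 and 9.93 CPM in ZXD libraries 1 to 5, 7.19, 6.91, 4.58, 7.91 and 2.64 CPM in HFD libraries 1 to 5, and 5.025, 4.10, 6.08, 5.85 and 2.81 CPM in CON libraries 1 to 5. Every ZXD library lay above every CON library, and here ZXD library 4 was the lowest of its group. For Col13a1 the log2 fold change was 0.99 in ZXD versus CON (SE 0.29, edgeR adjusted p = 0.0189), 0.29 in HFD versus CON (SE 0.29, edgeR adjusted p = 0.488) and 0.70 in ZXD versus HFD (SE 0.29, edgeR adjusted p = 0.248). Without CON library 5 the ZXD versus CON value was 0.84 with an edgeR adjusted p of 0.0507. The Col13a1 window, chr20:30466751-30467050 on the minus strand of GRCr8, is shown because of the 7 called collagens with a window it alone holds the letters TATAAA (in capitals). Whether they act as a TATA box was not tested.
Col13a1: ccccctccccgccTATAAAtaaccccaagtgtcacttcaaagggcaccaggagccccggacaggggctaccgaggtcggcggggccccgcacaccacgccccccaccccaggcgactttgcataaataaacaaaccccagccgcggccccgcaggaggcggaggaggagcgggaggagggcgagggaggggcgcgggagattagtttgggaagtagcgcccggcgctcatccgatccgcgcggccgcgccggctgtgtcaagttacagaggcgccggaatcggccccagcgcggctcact

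The TATAAA match begins at position -237 from the gene's start. The letters TATAAA were found in 14.2% of all windows and in 3 of the 33 collagen windows, and the GC content here is 68.7%. Col25a1, known as a neuronal collagen, averaged 1.55 ± 0.935 CPM in ZXD, 1.315 ± 0.138 CPM in HFD and 3.23 ± 2.08 CPM in CON. Its log2 fold change was -1.06 in ZXD versus CON (SE 0.45, edgeR adjusted p = 0.0821) and -1.29 in HFD versus CON (SE 0.45, edgeR adjusted p = 0.0546). Of the short chain collagens, the vessel wall chains Col8a1 and Col8a2 gave -0.34 and 0.00 in ZXD versus CON and -1.15 and -0.07 in HFD versus CON. None of these was called, against 32.7% of all genes in ZXD versus CON and 21.0% in HFD versus CON.

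Libraries of a group differed more for collagens than for most genes. The median coefficient of variation of the 28 tested collagens was 43.6% in ZXD, 44.5% in HFD and 34.2% in CON, against 22.1%, 23.4% and 20.3% over all tested genes. Lower levels also vary more by counting alone, and levels were not matched here. ZXD library 4 was the highest of its group for 16 of 28 collagens (57.1%, against 31.8% of all genes) and ZXD library 2 the lowest for 17 (60.7%, against 27.7%). HFD library 5 was the highest for 16 (57.1%, against 19.7%) and HFD library 3 the lowest for 15 (53.6%, against 18.9%). CON library 2 was the highest for 11 (39.3%, against 17.9%) and CON library 3 the lowest for 13 (46.4%, against 18.3%).

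**Figure D4:**
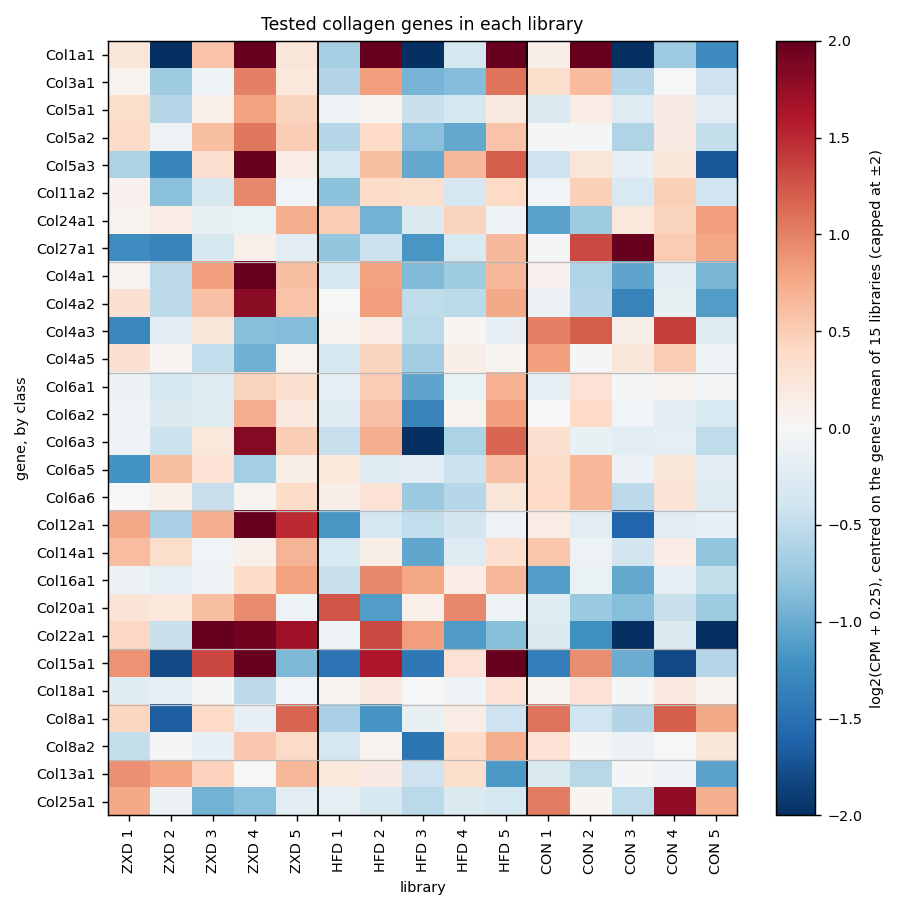
Each of the 28 tested collagens in each of the 15 libraries, as log2(CPM + 0.25) centred on the gene's mean, with ZXD, HFD and CON from left to right and colours capped at 2 in either direction. Red columns at ZXD library 4 and HFD libraries 2 and 5 and blue columns at ZXD library 2 and HFD library 3 run across most fibrillar and type VI chains, Col4a1 and Col4a2. The other tested type IV chains, Col4a3 and Col4a5, were low in ZXD library 4, at -0.851 and -0.968.

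Markers of the cells in the tissue moved between the groups as well. Their counts are read against all genes, of which 32.7% were called in ZXD versus CON (17.9% higher, 14.8% lower) and 21.0% in HFD versus CON (10.0% higher, 10.9% lower). The 13 stellate cell markers had summed levels of 411.2 to 644.5 CPM in ZXD, 271.5 to 508.2 CPM in HFD and 439.8 to 613.2 CPM in CON, with 0 higher and 1 lower in ZXD versus CON and 0 higher and 3 lower in HFD versus CON. With library totals in place of TMM, 5 stellate cell markers were higher and 0 lower in ZXD versus CON, and 2 higher and 1 lower in HFD versus CON. On that scaling 45.9% of all genes were called higher and 4.77% lower in ZXD versus CON, and 40.9% and 3.84% in HFD versus CON. The myofibroblast and portal fibroblast markers summed to 209.3 to 351.6 CPM in ZXD, 175.8 to 334.4 CPM in HFD and 378.3 to 542.0 CPM in CON. That sum was mostly Dpt, at 207.3 CPM in ZXD, 181.3 CPM in HFD and 403.6 CPM in CON. The log2 fold change was positive for 4 of the 8 tested markers in ZXD versus CON (median 0.28) and for 6 of 8 in HFD versus CON (median 0.68). Of the 8, Dcn was called higher and Dpt lower in ZXD versus CON, and Dpt was called lower in HFD versus CON. Thy1, Gli1 and Postn were too low to test. Thy1, a portal fibroblast marker, was at 0 counts in every CON library and averaged 0.435 CPM in ZXD and 0.334 CPM in HFD, near the floor. Gli1 averaged 0.186, 0.204 and 0.124 CPM and Postn 0.979, 0.976 and 0.534 CPM in ZXD, HFD and CON. The 4 smooth muscle markers were not called in either comparison and summed to 31.7 to 51.4 CPM in ZXD, 20.1 to 121.0 CPM in HFD and 34.9 to 51.5 CPM in CON.

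The 8 sinusoidal endothelial markers summed to 460.9 to 622.4 CPM in ZXD, 95.6 to 366.1 CPM in HFD and 83.2 to 386.5 CPM in CON, so that ZXD did not overlap the others. In ZXD versus CON 5 rose and 0 fell, but without CON libraries 2 or 3 only 2 were called and without CON library 5 only 3; in HFD versus CON 0 were called. The 11 macrophage markers summed to 598.0 to 3131.7 CPM in ZXD, 356.2 to 1416.5 CPM in HFD and 218.4 to 723.7 CPM in CON, with 9 higher in ZXD versus CON and 2 higher in HFD versus CON. The macrophage count in ZXD versus CON was 5 without any 1 of CON libraries 3 or 5 or ZXD libraries 3, 4 or 5. The highest macrophage sums in each treated group were in ZXD library 4 and HFD library 2, both high in collagens, while ZXD library 3 was second in macrophage sum at 2475.2 CPM. Cholangiocyte markers summed to 38.9 to 86.85 CPM in ZXD, 49.5 to 93.6 CPM in HFD and 16.9 to 27.0 CPM in CON, with 2 of 6 tested higher in ZXD versus CON and 3 in HFD versus CON. Of the 6 hepatocyte markers, 3 (Alb, Ttr and Serpina1) fell in each comparison with CON, while Apoa1, Tat and Cps1 were not called. The smaller marker counts also moved when 1 library was left out: the stellate cell call and the Dcn call in ZXD versus CON were lost without any 1 of 5 and of 8 libraries, ZXD library 4 among them in both cases. The cholangiocyte counts lay between 1 and 2 in ZXD versus CON and between 2 and 5 in HFD versus CON, and the macrophage count in HFD versus CON between 1 and 6 (6 without HFD library 4). With library totals, the markers called higher in HFD versus CON became 8 of 11 for macrophages and 4 of 6 for cholangiocytes. They became 3 of 8 for myofibroblasts and portal fibroblasts and 1 of 8 for sinusoidal endothelium, against 40.9% of all genes. For ZXD against CON they became 9 of 11 for macrophages and 8 of 8 for sinusoidal endothelium. There 4 of 6 cholangiocyte and 1 of 4 smooth muscle markers were higher, against 45.9% of all genes. The part of these shifts in the collagen results was not tested.

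Ratios of chains within a library need no scaling between libraries. As log2 ratios of counts, Col4a1 to Col4a2 averaged 0.46 ± 0.25 in ZXD, 0.18 ± 0.15 in HFD and 0.50 ± 0.16 in CON (SD, n = 5 each). HFD minus CON was -0.32 (two-sided exact permutation p = 0.0238, adjusted p = 0.119 over 15 tests), and ZXD minus HFD was 0.29 (exact permutation p = 0.0635, adjusted p = 0.238). Col3a1 to Col5a2 averaged 2.74 ± 0.26 in ZXD, 3.345 ± 0.26 in HFD and 3.33 ± 0.32 in CON. ZXD minus HFD was -0.60 and ZXD minus CON was -0.59 (exact permutation p = 0.0159 and adjusted p = 0.119 for each). None of the 15 differences passed after adjustment; the smallest p that 5 against 5 libraries allow is 0.0079, which cannot pass an adjustment over 15 tests when it stands alone. Col6a1 to Col6a2 averaged 0.92 ± 0.14 in ZXD, 0.96 ± 0.19 in HFD and 1.04 ± 0.21 in CON, and the ratios of Col1a1 to Col3a1 and to Col4a1 differed between groups by less than their SD.

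**Figure D5:**
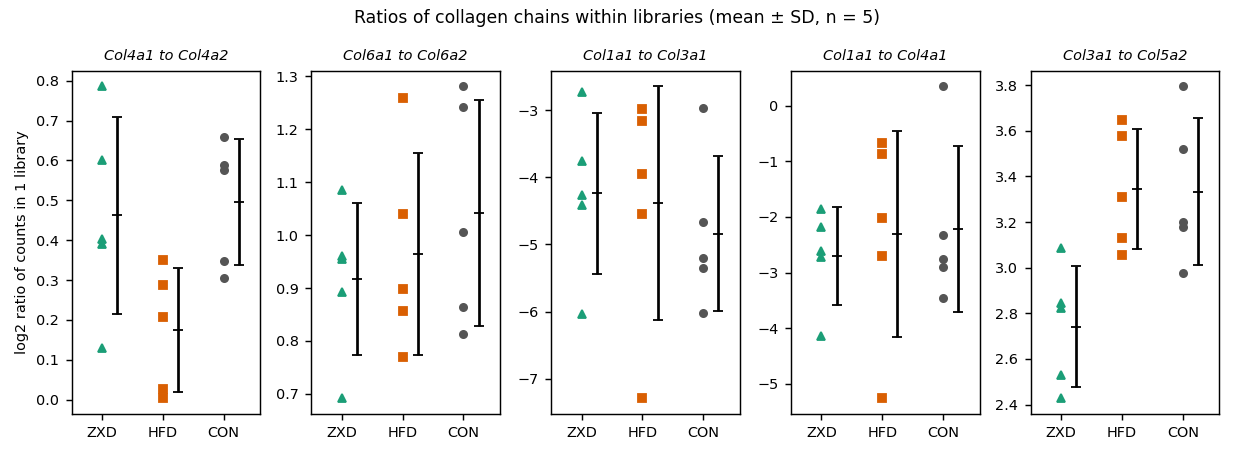
Log2 ratios of counts within each library for 5 pairs of collagen chains in ZXD, HFD and CON, with points for libraries and bars for the mean and SD over 5 libraries. For Col3a1 to Col5a2, 4 of 5 ZXD libraries lie below every HFD and CON library, and for Col4a1 to Col4a2 the HFD mean of 0.18 lies below the ZXD mean of 0.46 and the CON mean of 0.50.

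Genes that build, bind or induce collagens were read from lists by role. Of 30 tested biosynthesis and crosslinking genes, 3 rose and 4 fell in ZXD versus CON and 2 rose and 4 fell in HFD versus CON. Neither share exceeded that of all genes called, 32.7% in ZXD versus CON and 21.0% in HFD versus CON. The genes with the smallest p in ZXD versus CON were Bmp1 (log2 fold change -0.71, edgeR adjusted p = 0.0045), the enzyme that removes the C-propeptide, P3h1 (-0.59, edgeR adjusted p = 0.00547) and P4ha2 (-0.65, edgeR adjusted p = 0.0234), both prolyl hydroxylases, with Adamts14, an N-propeptidase (1.38, edgeR adjusted p = 0.0206), and Crtap, a partner of P3h1 (0.69, edgeR adjusted p = 0.0346). For HFD they were the lysyl hydroxylase Plod1 (-0.48, edgeR adjusted p = 0.0138), the prolyl hydroxylase P4ha1 (-1.15, edgeR adjusted p = 0.0182), the collagen exporter Mia3 (-0.69, edgeR adjusted p = 0.0215), P3h3 (0.75, edgeR adjusted p = 0.0314) and Bmp1 (-0.51, edgeR adjusted p = 0.0314). With library totals, 13 genes of this list were called higher and 0 lower in ZXD versus CON, and 3 higher and 0 lower in HFD versus CON, against 45.9% and 40.9% of all genes called higher. None of the falls was called on that scaling, while the named genes that fell kept their calls with DESeq2's size factors. The calls of Bmp1 and P3h1 in ZXD versus CON and of Plod1 in HFD versus CON held without any single library, and the others did not. Leaving out single libraries gave 0 to 3 higher in ZXD versus CON (0 without CON libraries 2 or 5 or ZXD library 4) and 0 to 2 higher in HFD versus CON (0 without CON libraries 2 or 5 or HFD libraries 2 or 5). It gave 2 to 5 lower in each comparison, with 2 lower in ZXD versus CON without CON libraries 2, 3 or 5 or ZXD libraries 3 or 4, and in HFD versus CON without CON library 4 or HFD library 2.

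Of 9 tested collagen receptors, 4 rose and 1 fell in ZXD versus CON (55.6%, against 32.7% of all genes) and 1 rose in HFD versus CON (11.1%, against 21.0%). With library totals, 5 were higher and 1 lower in ZXD versus CON, and 4 higher and 0 lower in HFD versus CON. On that scaling 45.9% of all genes were called higher and 4.77% lower in ZXD versus CON, and 40.9% and 3.84% in HFD versus CON. The platelet receptor Gp6 averaged 38.55 CPM in ZXD, 16.9 CPM in HFD and 1.36 CPM in CON, with log2 fold changes of 4.82 in ZXD versus CON (edgeR adjusted p = 0.00498) and 3.62 in HFD versus CON (edgeR adjusted p = 0.0252). In ZXD versus CON the integrin chains Itga2 (3.22, edgeR adjusted p = 0.0174) and Itgb1 (0.53, edgeR adjusted p = 0.0178) and the discoidin domain receptor Ddr2 (2.64, edgeR adjusted p = 0.0308) rose. Ddr1 fell, at 3.26 CPM in ZXD and 26.3 CPM in CON (-2.996, edgeR adjusted p = 0.018), while HFD averaged 32.3 CPM. The Itga2 and Ddr2 calls were lost without ZXD library 4 (edgeR adjusted p up to 0.0756), when 2 receptors were called higher. The Ddr2 call was lost without any 1 of 4 other libraries too, and the Gp6 call in HFD versus CON without any 1 of 5. Limma voom called neither Gp6, Itga2, Ddr1 nor Ddr2.

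Of 17 tested inducing signals, 6 rose and 0 fell in ZXD versus CON (35.3%, against 32.7% of all genes) and 4 rose and 0 fell in HFD versus CON (23.5%, against 21.0%), shares near those of all genes. With library totals 12 (70.6%) were higher in ZXD versus CON and 7 (41.2%) in HFD versus CON, with 0 lower in each. On that scaling 45.9% and 40.9% of all genes were called higher. The growth factor chain Pdgfa averaged 12.04 CPM in ZXD, 15.4 CPM in HFD and 5.27 CPM in CON, with log2 fold changes of 1.19 in ZXD versus CON (edgeR adjusted p = 0.00226) and 1.54 in HFD versus CON (edgeR adjusted p = 0.000477). Tgfb1, the best known inducer of fibrillar collagen, averaged 38.6 CPM in ZXD, 24.2 CPM in HFD and 9.545 CPM in CON, with 2.02 in ZXD versus CON (edgeR adjusted p = 0.00704) and 1.34 in HFD versus CON (edgeR adjusted p = 0.0567). Smad7, an inhibitor of that pathway, gave 0.76 in ZXD versus CON (edgeR adjusted p = 0.0166) and 0.71 in HFD versus CON (edgeR adjusted p = 0.0339). Pdgfb gave 1.94 (edgeR adjusted p = 0.0185) and 1.82 (edgeR adjusted p = 0.037), and Pdgfc gave 0.56 (edgeR adjusted p = 0.0365) and 0.79 (edgeR adjusted p = 0.0111), in the same order. The calls of Pdgfa in both comparisons, Tgfb1 and Smad7 in ZXD versus CON and Pdgfc in HFD versus CON held without any single library. Those of Pdgfb in ZXD versus CON (without ZXD library 4), Pdgfc in ZXD versus CON, and Smad7 and Pdgfb in HFD versus CON (each without any 1 of 6) did not. Only 2 signals were called in HFD versus CON without CON libraries 2, 3 or 5 or HFD library 2. Between ZXD and HFD edgeR called none of these 3 lists' genes.

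Col4a3bp, the ceramide carrier that matched the symbol pattern, averaged 87.1 ± 7.15 CPM in ZXD, 85.2 ± 5.38 CPM in HFD and 69.0 ± 7.22 CPM in CON. Every ZXD and every HFD library lay above every CON library. Its log2 fold change was 0.34 in ZXD versus CON (SE 0.10, edgeR adjusted p = 0.0175) and 0.30 in HFD versus CON (SE 0.10, edgeR adjusted p = 0.0399); the second call was lost in 10 of the 15 fits that left out 1 library, and the first without CON library 2 (edgeR adjusted p = 0.0502).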

How the data were processed

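RNA from rat liver was purified with Trizol and made into Illumina libraries, per the labels' protocols. The authors deposited 1 table with a whole-number read count and an FPKM value per gene and library, per the file headers. It also gives each gene's length in bases. The submitters' processing notes name edgeR without a version or role. Aligner, counter, build, annotation and strand use: not given in the sources used here. The deposited FPKM values equalled count over length and library total for 100.0% of 228390 values above 0 (tolerance 0.01%), so they carry no other scaling and were not used further.

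Groups and replicate numbers came from the sample titles. Library totals were 12552449 to 14228052 counts. No pair of libraries of a group differed by as little as sampling noise. The labels do not say that libraries came from separate rats, so the p-values cover the spread among these libraries alone, which may be technical. The range of CPM for 3 counts comes from the scaled sizes of the libraries and does not include counting error.

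From all 21576 genes, low genes were dropped with edgeR's filterByExpr, run on the groups with a count minimum of 10 and a total minimum of 15. This kept 13163 genes, in edgeR 4.0.16 and R 4.3.3. Library sizes and TMM factors were then taken from the kept genes and also used for the CPM of untested genes. All 15 libraries entered 1 robust quasi-likelihood fit with group as the sole term. Adjusted p-values are Benjamini-Hochberg values over all 13163 genes of a comparison. Alternatives were DESeq2 1.42.0, limma voom (limma 3.58.1), library totals, no or a strict filter, only the groups compared, a replicate block, each library left out, and HFD libraries 2 and 5 left out together. The script was checked on simulated counts. Ratios are log2 of counts plus 0.5, tested with a 2-sided exact permutation test and adjusted over 15 tests. The planned ratio of Col1a1 to Col1a2 was not computed.

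The collagens, classes, pathway lists and markers were chosen with earlier results of these data known. Values per library are given for called collagens and for Col1a1, Col3a1, Col5a1, Col5a2, Col4a1, Col4a2, Col6a1, Col6a2, Col6a3, Col14a1, Col15a1 and Col18a1. Other tested collagens are given by fold change or mean, and pathway genes as up to 5 called genes per list and comparison with the smallest adjusted p. Col6a4, Dcn, Dpt and Thy1 were singled out after their values were seen. All 43 matching symbols were found in RefSeq's gene table (42 as symbols, 1 as a synonym). Promoter windows are RefSeq's for the assembly GRCr8 and were matched by symbol for 33 of 42 collagens, including 7 of the 9 called ones. No coordinates of the deposited table are given.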

Additional observations from a re-analysis of the deposited data

Results flagged for a closer look

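The lowest and highest library of each group of 5 were compared with the rest for 19 named collagens, 57 sets in all. The gap to the nearest library, divided by the group's range on the log2 scale, exceeded the critical value of 0.71 in 1 set, while chance flags about 1 in 20. It was Col12a1 in CON, where library 3 was far below the others at 1.14 CPM (gap over range 0.797), against 3.37 to 4.40 CPM in CON libraries 1, 2, 4 and 5. CON library 3 was also the lowest of its group for 13 of 28 tested collagens. Without it, the Col12a1 call in ZXD versus CON was kept.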

How the results depend on the processing

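The number of collagens higher in HFD than in CON was 1, and became 2 with DESeq2 (adding Col20a1), 2 without a filter (adding Col6a4), 6 with library totals and 0 with limma voom; leaving out 1 library gave 0 to 1. The number lower was 1, and became 2 with DESeq2 and 2 with only the groups compared (adding Col25a1), and 0 with library totals; leaving out 1 library gave 0 to 2. In ZXD versus CON 6 were higher, 10 with library totals, 7 without HFD libraries 2 and 5 (adding Col5a2) and 3 with limma voom (Col13a1, Col22a1, Col4a2), and 2 to 6 with 1 library left out: 2 without CON library 5 or ZXD library 4 and 3 without CON library 3. There 2 were lower, 1 with the strict filter, which leaves Col4a3 untested, and 2 to 3 with 1 library left out. In ZXD versus HFD 0 were called, against 1 higher with DESeq2 (Col12a1). The number too low to test was 14, and 6 by a mean count under 3 in each group. With library totals the log2 fold change of Col18a1 in HFD versus CON was 0.40, against -0.02, and that of Plod1 in ZXD versus CON was 0.10, against -0.34, as the median of all genes also moved up. Over 48 genes followed, 189 values that were not called changed sign under some setting. With 1 library left out, the exact tests of the 15 chain ratios were too small to pass an adjustment, so they say nothing on stability. Other causes were not tested. At this depth, collagens with fewer than about 10 counts could not be compared.

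Deviations from the group means of libraries with equal replicate numbers correlated at -0.0778 to 0.26 in HFD versus CON, and those with unequal numbers at -0.262 to 0.274. The ranges were -0.547 to 0.105 and -0.563 to 0.614 in ZXD versus HFD, and -0.158 to 0.0149 and -0.190 to 0.212 in ZXD versus CON. Such values cannot show whether equal numbers mark a shared day or batch, which the labels do not state. With the number as a replicate block, 0 collagens were lower and 1 higher in HFD versus CON, and 5 higher and 2 lower in ZXD versus CON.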
